A study of Mus musculus with 12 samples.

Results

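Mitochondrial fatty acid oxidation was described here through 10 genes, chosen by symbol from the 56350 genes of the count table without use of their measured values: Cpt1a, Cpt2, Acadm, Acadl, Acadvl, Hadha, Hadhb, Acaa2, Ppargc1a and Ucp2. All 10 symbols were found, and 9 of them passed the filter on low counts and were tested. The values came from mRNA sequencing of MPC2 cells, a conditionally immortalized mouse mesenchymal line grown from a single progenitor clone. The 4 conditions, with 3 libraries each, were undifferentiated cells (MSCs, kept at 33 °C) under vehicle (DMSO), MSCs under 50 uM FG-4592 (roxadustat), cells differentiated for 3 weeks in osteogenic medium at 37 °C (osteocytes) under vehicle, and osteocytes under 50 uM FG-4592. Each treatment ran for 48 hours. Temperature, medium and time in culture changed together with differentiation, so their shares in an osteocyte to MSC difference cannot be told apart. All libraries are of the same clone, and no source used here states whether replicates were separate cultures, so p-values measure the spread between libraries, which may be technical.

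Fatty acids enter mitochondria as carnitine esters. Cpt1a, on the outer membrane, makes the ester and is the regulated entry step, and Cpt2, on the inner membrane, turns it back into acyl-CoA. The acyl-CoA dehydrogenases Acadvl, Acadl and Acadm, named for very long, long and medium chains, take the first step of each beta-oxidation round. Hadha and Hadhb are the subunits of the trifunctional protein, which carries out the remaining steps for long chains, and Acaa2 is a matrix thiolase that releases acetyl-CoA. Ppargc1a encodes PGC-1α, a coactivator of genes for mitochondrial biogenesis and fatty acid oxidation, and Ucp2 encodes a carrier of the inner membrane. FG-4592 inhibits the prolyl hydroxylases that mark HIF for degradation, and HIF is best known in metabolism for raising glycolytic genes.

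The libraries held between 52829185 and 68108470 counts, so that a count of 3, the limit a count of 0 allows, equaled 0.0447 to 0.0545 CPM (counts scaled to library sizes adjusted with TMM factors). Of 8 HIF-induced control genes, 6 rose with FG-4592 in MSCs and 8 in osteocytes (FDR under 0.05, edgeR quasi-likelihood test). Car9 and Egln3 passed in osteocytes only, and reached at most 7 and 1 counts in the MSC libraries. They met the filter on low counts only through the FG-4592 osteocyte libraries, so their rise there follows in part from that filter. Pdk1, the kinase that shuts pyruvate out of the TCA cycle, rose by a log2 fold change of 4.87 in MSCs and 4.01 in osteocytes. The osteocyte label was met by some markers only. Phex averaged 0.977 CPM in vehicle MSCs and 57.6 CPM in vehicle osteocytes, whereas Sost had 0 counts in every library and Mepe and Pdpn reached at most 2 and 1. Of the 7 tested markers, 4 were higher and 2 lower in vehicle osteocytes than in vehicle MSCs (26.0% and 24.9% of all genes). Ibsp averaged 59.6 CPM in vehicle MSCs and 35.6 CPM in vehicle osteocytes. With FG-4592, 5 of the 7 tested osteocyte and osteoblast markers fell in MSCs and 6 of 7 in osteocytes, where Phex averaged 2.83 CPM. Among all genes tested, 20.4% fell and 17.6% rose with FG-4592 in MSCs, 22.0% fell and 21.9% rose in osteocytes, and 26.0% (vehicle) and 30.5% (FG-4592) were higher in osteocytes than in MSCs. Adipocyte markers were far higher in the osteocyte libraries. The summed level of the 9 markers was 55.9 to 59.9 CPM in vehicle MSCs, 68.7 to 70.5 CPM in FG-4592 MSCs, 2128 to 2936 CPM in vehicle osteocytes and 2618 to 3066 CPM in FG-4592 osteocytes. With FG-4592 in MSCs, 1 of the 8 tested markers rose and 2 fell, with a median log2 fold change of −0.577. Pnpla2 averaged 42.4 CPM in vehicle MSCs and 60.8 CPM in FG-4592 MSCs, and Adipoq went from 7.77 to 2.86 CPM. All 8 that were tested were higher in osteocytes under either treatment, Adipoq and Plin1 among them, and Lep, the untested marker, reached at most 3 counts. Cidec, Cfd and Retn met the filter on low counts only through the osteocyte libraries, so their differences follow in part from that filter. Summed chondrocyte markers (6 genes) moved with FG-4592, from 85.4 to 94.0 CPM up to 148 to 165 CPM in MSCs and from 115 to 136 CPM up to 376 to 456 CPM in osteocytes. Of the 5 tested, 2 rose and 2 fell in MSCs and 4 rose and 1 fell in osteocytes, and Acan reached at most 3 counts. Summed myocyte markers went from 7.65 to 8.87 CPM down to 2.40 to 3.45 CPM in MSCs. In osteocytes they went from 4.57 to 5.95 CPM up to 6.60 to 8.58 CPM. These sums were mostly Des, at 8.03 and 2.84 CPM in MSCs and 5.00 and 7.66 CPM in osteocytes (vehicle and FG-4592). Myod1, Myog, Ckm and Actn2 reached at most 3 counts. Summed blood and vessel markers stayed at or below 3.67 CPM. The part of these markers in the results was not tested.

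The enzymes of the pathway were expressed in every library, and the 2 other members were not. In each library the 8 enzymes had at least 1588 counts. Ppargc1a had 0 counts in 3 of 3 vehicle MSC libraries and in 3 of 3 vehicle osteocyte libraries. Its counts were 1, 0 and 0 in FG-4592 MSCs and 2, 0 and 4 in FG-4592 osteocytes. Ppargc1a was therefore at or near the limit of detection throughout, no fold change was computed, and a change with FG-4592 was not detectable at this depth. Ucp2 had 4, 1 and 0 counts in vehicle MSCs and 159 to 233 counts in vehicle osteocytes.

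**Figure D1:**
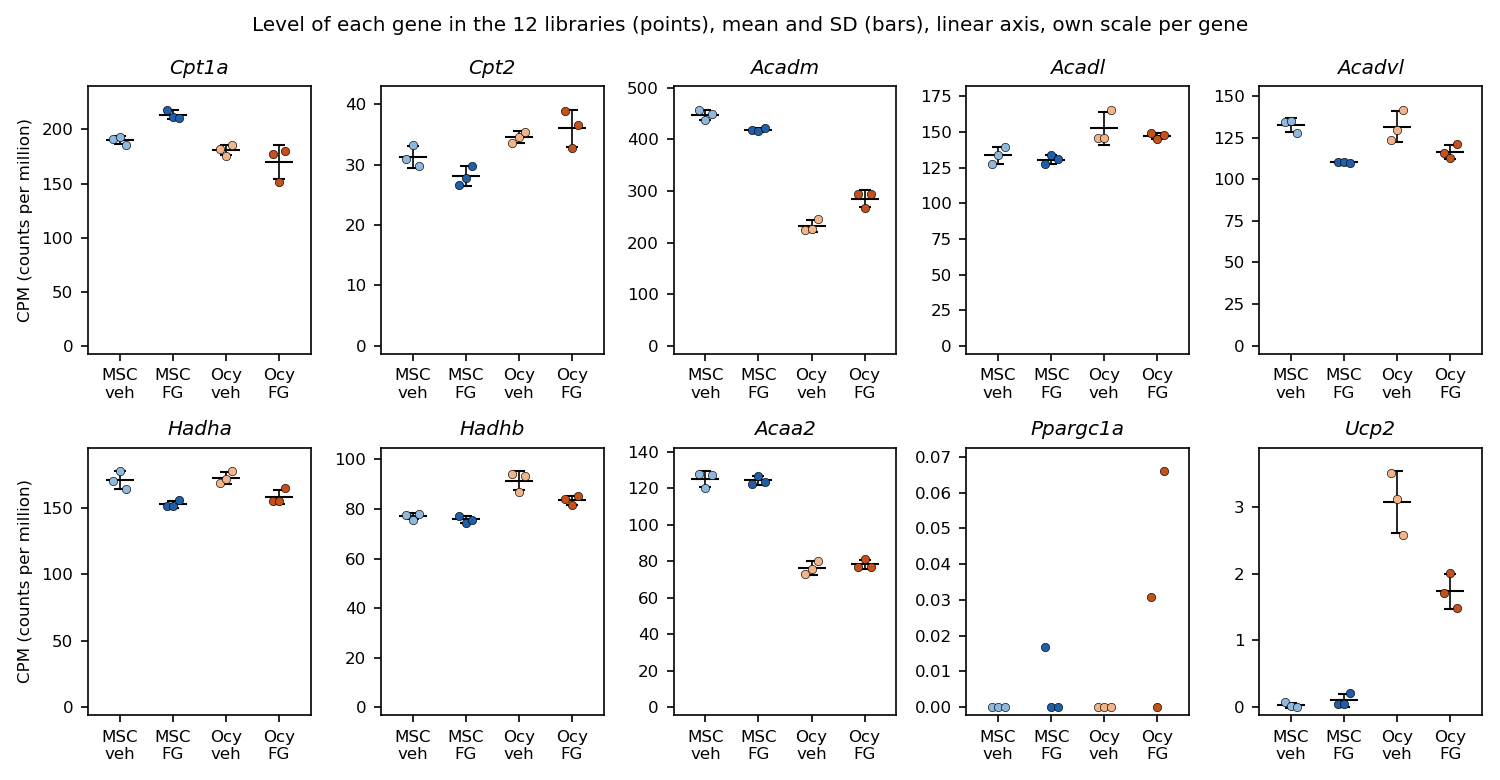
Level of the 10 genes in CPM on linear axes that start at 0, with a separate scale for each gene. Points are the 12 libraries, bars are the mean and SD of 3 libraries (not drawn for Ppargc1a), and MSC, Ocy, veh and FG stand for MSCs, osteocytes, vehicle and FG-4592. Acadm and Acaa2 sit lower in osteocytes, Ucp2 is near 0 in MSCs, and the other enzymes lie in narrow bands.

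Per length of transcript, medium-chain and matrix enzymes led. In TPM (transcript abundance per length, scaled to the same sum in each library and computed with the exonic lengths in the deposited table) vehicle MSCs held 437 ± 17.0 of Acadm, 315 ± 16.7 of Acaa2, 255 ± 13.4 of Acadl and 189 ± 3.81 of Acadvl (SD, n = 3). Cpt1a followed with 94.9 ± 0.932 TPM, then Hadha with 74.7 ± 1.58, Cpt2 with 50.02 ± 1.93 and Hadhb with 44.7 ± 1.54. No neighbors among these 8 enzymes overlapped between libraries in vehicle MSCs, and in FG-4592 MSCs only Cpt2 and Hadhb did. In vehicle osteocytes Acadl led with 290.4 ± 17.4 TPM ahead of Acadm with 227 ± 7.92, and the ranges of Acaa2 and Acadvl overlapped, as did those of Cpt2 and Hadhb. Under FG-4592 the osteocyte ranges of Acadl and Acadm overlapped, at 264 ± 7.47 and 261 ± 17.4 TPM. This order depended on the length used. The deposited lengths join the exons of all isoforms, and they exceed the main coding transcript most for Hadha (8730 against 4017 bases) and Hadhb (6595 against 2048 bases). With the coding transcript length, an alternative chosen after seeing the data, Acadm led in all 4 conditions, and only 3 of the 10 genes kept their rank in osteocytes under either treatment, against 8 of 10 in MSCs.

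The summed level of the 8 enzymes was lower in osteocytes, where Acadm and Acaa2 were lower. It was 1460 ± 37.5 TPM in vehicle MSCs and 1171 ± 42.0 TPM in vehicle osteocytes, and the libraries did not overlap. Without Acadm and Acaa2, a split chosen after the values were seen, the other 6 enzymes summed to 708 ± 7.57 TPM in vehicle MSCs and 752 ± 28.8 TPM in vehicle osteocytes. The makeup of the 8-enzyme sum shifted as well, with Acadm giving 29.9% ± 0.471 of it in vehicle MSCs and 19.4% ± 0.0366 in vehicle osteocytes. Acadl moved from 17.4% ± 0.807 to 24.8% ± 0.593 of the 8-enzyme sum between the same conditions. With FG-4592 the sum was 1311 ± 37.1 TPM in MSCs and 1111 ± 41.5 TPM in osteocytes. On the CPM scale the sums were 1308 ± 7.42 and 1254 ± 3.83 in MSCs and 1073 ± 46.0 and 1075 ± 43.0 in osteocytes, for vehicle and FG-4592 in that order, so the lower sum in FG-4592 osteocytes was seen in TPM only. No test was run on the sums.

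FG-4592 left the enzymes close to their vehicle levels in both cell types. In MSCs 1 of the 9 tested genes rose and 2 fell (edgeR quasi-likelihood test, FDR under 0.05), and none also passed an absolute log2 fold change of 1. Among all 16484 genes tested, 17.6% rose, 20.4% fell and 9.29% passed both cutoffs. In osteocytes 1 of the 9 rose and 3 fell, with none past both cutoffs, against 21.9%, 22.0% and 10.5% of all genes. The median log2 fold change of the 9 genes was −0.03 in MSCs and −0.09 in osteocytes, beside −0.05 and 0.0015 over all genes tested. Among the 8 enzymes each log2 fold change lay between −0.27 and 0.29.

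**Figure D2:**
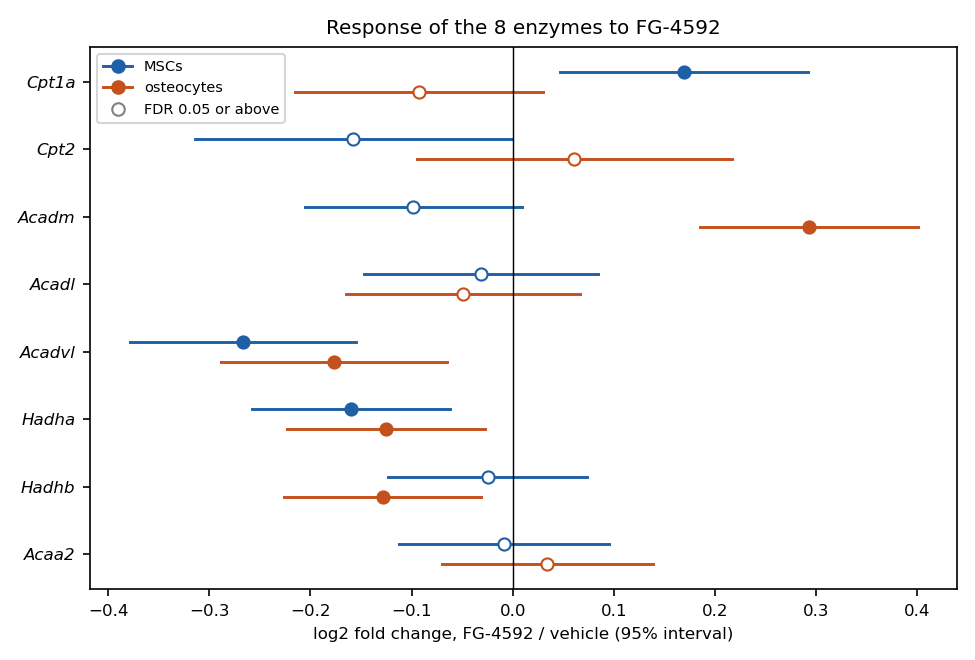
Log2 fold change of the 8 enzymes with FG-4592 against vehicle, with 95% intervals from the edgeR fit, in MSCs (blue) and osteocytes (orange). Filled points have an FDR under 0.05 and open points do not. All values lie between −0.27 and 0.29, and the intervals of the 2 cell types do not overlap for Acadm or Cpt1a.

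Of the carnitine pair, Cpt1a responded differently in the cell types, and the response difference of Cpt2 (0.22, FDR = 0.146, edgeR quasi-likelihood test) did not pass. Cpt1a measured 191, 193 and 186 CPM in vehicle MSCs and 218, 212 and 211 CPM in FG-4592 MSCs. The groups did not overlap, and Cpt1a rose by 0.17 on the log2 scale (SE 0.06, FDR = 0.0292, edgeR quasi-likelihood test). In osteocytes Cpt1a was at 182, 176 and 186 CPM with vehicle and 177, 152 and 181 CPM with FG-4592, overlapping groups with a log2 fold change of −0.09 (95% interval −0.22 to 0.03, FDR = 0.217). The response in osteocytes minus that in MSCs was −0.26 (SE 0.08, FDR = 0.0281, edgeR quasi-likelihood test). The rise in MSCs is small and lost its call without any of the 3 FG-4592 MSC libraries (FDR = 0.0895, 0.0574 and 0.0520 without replicates 1, 2 and 3) and with upper-quartile factors (FDR = 0.0628) or library size alone (log2 fold change 0.08, FDR = 0.273). With library size alone Cpt1a also fell with FG-4592 in osteocytes (−0.19, FDR = 0.0127). The difference lost its call without FG-4592 MSC replicate 1 (FDR = 0.0647) or vehicle osteocyte replicate 3 (FDR = 0.0557). Cpt2 had 30.9, 33.3 and 29.8 CPM in vehicle MSCs and 26.7, 27.7 and 29.8 CPM in FG-4592 MSCs. Its groups overlapped narrowly, with a log2 fold change of −0.16 (95% interval −0.31 to −0.00098, FDR = 0.107), and with library size alone it was −0.24 and passed (FDR = 0.0153). In osteocytes Cpt2 was at 33.6 to 35.5 CPM with vehicle and 32.7 to 38.8 CPM with FG-4592, with an interval of −0.09 to 0.22 for the log2 fold change.

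Cpt1a lies at chr19:3322334-3385733 on the plus strand and Cpt2 at chr4:107903981-107923610 on the minus strand (GRCm38, Gencode M21). The promoter window of Cpt1a, taken from RefSeq on GRCm38.p6 at chr19:3323051-3323350 on the plus strand, is shown because this gene answered differently in the 2 cell types. Sequences run 5′ to 3′ on the gene's strand and capitals mark, on either strand, ACGTG and GCGTG, the core letters of a HIF response element, and AGGTCA, a half-site of nuclear receptors such as the PPARs.
Cpt1a: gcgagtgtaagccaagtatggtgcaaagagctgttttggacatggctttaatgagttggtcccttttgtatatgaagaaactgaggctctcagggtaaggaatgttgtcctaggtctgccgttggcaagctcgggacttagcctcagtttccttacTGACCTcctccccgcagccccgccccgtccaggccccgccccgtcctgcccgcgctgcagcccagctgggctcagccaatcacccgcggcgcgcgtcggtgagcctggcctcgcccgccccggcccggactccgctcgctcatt
This window holds a single AGGTCA, on the minus strand at position −94 from the start site, and no HIF core. Across 32851 RefSeq promoters of the same length, 16.3% held AGGTCA, 19.6% held ACGTG, 32.4% held GCGTG and 43.8% held at least 1 of the 2 HIF cores. A match to so few letters is a description of the window and not a binding site. RefSeq windows were given for 9 of the 10 genes, and of these 6 held a HIF core and 3 held AGGTCA.

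Of the 3 dehydrogenases, Acadm alone rose with FG-4592, and it did so in osteocytes. Acadm measured 225, 227 and 246 CPM in vehicle osteocytes and 294, 266 and 295 CPM in FG-4592 osteocytes. Every treated library lay above every vehicle library, and the log2 fold change was 0.29 (SE 0.05, FDR = 0.000178, edgeR quasi-likelihood test), a rise of 22.5%. In MSCs it was at 457, 437 and 449 CPM with vehicle and 417, 415 and 422 CPM with FG-4592. The MSC groups did not overlap either, but in the other direction, and the log2 fold change of −0.10 (95% interval −0.21 to 0.009) did not pass (FDR = 0.143), whereas with library size alone it was −0.18 and passed (FDR = 0.00849). The response of Acadm in osteocytes minus that in MSCs was 0.39 (SE 0.07, FDR = 0.000796, edgeR quasi-likelihood test), and this call stayed under all 22 alternatives run. In osteocytes the summed adipocyte markers ranged from 2128 to 2936 CPM with vehicle and from 2618 to 3066 CPM with FG-4592, 4 of the 8 tested rose and none fell (21.9% and 22.0% of all genes), and their part in the rise of Acadm was not tested.

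Acadm lies at chr3:153922357-153944632 on the minus strand. Its RefSeq promoter window, chr3:153944594-153944893 on the minus strand, is shown because Acadm was the dehydrogenase that rose with FG-4592. With library size alone its rise in osteocytes was 0.19 on the log2 scale.
Acadm: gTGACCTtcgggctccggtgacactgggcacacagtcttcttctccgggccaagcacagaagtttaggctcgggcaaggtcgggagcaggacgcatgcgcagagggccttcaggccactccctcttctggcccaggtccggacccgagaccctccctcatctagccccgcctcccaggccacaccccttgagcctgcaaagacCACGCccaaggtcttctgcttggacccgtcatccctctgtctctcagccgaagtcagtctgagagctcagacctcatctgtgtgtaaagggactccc
The window holds AGGTCA in the longer form AAGGTCA at position −249, on the minus strand, and GCGTG at position −47. AAGGTCA, which contains AGGTCA and is known as a site of the estrogen-related receptors, was present in 4.72% of all promoters and in no other of the 9 windows.

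Acadvl, the very long-chain dehydrogenase, fell in both cell types. In MSCs it measured 135, 135 and 128 CPM with vehicle and 110.2, 111 and 109.8 CPM with FG-4592. The groups were well apart, at a log2 fold change of −0.27 (SE 0.05, FDR = 0.000713, edgeR quasi-likelihood test). In osteocytes Acadvl was at 123, 129.5 and 142 CPM with vehicle and 115, 113 and 121 CPM with FG-4592, or a log2 change of −0.18 (SE 0.05, FDR = 0.0121). The osteocyte groups did not overlap, but the call was lost without vehicle osteocyte replicate 3 (FDR = 0.0670) or FG-4592 osteocyte replicate 2 (FDR = 0.0551). Acadvl (chr11:70010183-70015411, minus strand) shares 1151 exonic bases with Dvl2 on the other strand, and counting without strand gave such reads to both genes. Dvl2 had 2049 to 3610 counts per library against 6569 to 8718 for Acadvl, and the share of Acadvl counts that came from Dvl2 was not tested. Acadl, the long-chain dehydrogenase (chr1:66830839-66863277, minus strand), passed in neither cell type. It ranged from 127 to 139 CPM in vehicle MSCs and 128 to 134 CPM in FG-4592 MSCs, with 95% limits of −0.15 and 0.08 for the log2 fold change. In osteocytes these limits were −0.16 and 0.07, and with library size alone the value was −0.15 and passed (FDR = 0.0383).

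The trifunctional protein and the thiolase moved little. Hadha measured 171, 178 and 164 CPM in vehicle MSCs and 151, 152 and 156 CPM in FG-4592 MSCs. These groups did not overlap, and Hadha fell by 0.16 on the log2 scale (SE 0.05, FDR = 0.0115, edgeR quasi-likelihood test), a call lost without vehicle MSC replicate 1 (FDR = 0.0712) or 2 (FDR = 0.152). In osteocytes Hadha went from 169, 172 and 178 CPM to 156, 155 and 165 CPM, a log2 fold change of −0.13 (SE 0.05, FDR = 0.0370). Hadhb fell by the same rounded amount in osteocytes, from 94.1, 86.9 and 93.2 CPM to 84.0, 81.6 and 85.2 CPM (SE 0.05, FDR = 0.0322). Neither gene's osteocyte groups overlapped, but both calls were lost without vehicle osteocyte replicate 3 (FDR = 0.113 for Hadha and 0.0852 for Hadhb), FG-4592 osteocyte replicate 1 (0.116 and 0.0685) or FG-4592 osteocyte replicate 2 (0.125 and 0.114). Both were also lost when only the 6 osteocyte libraries were fitted (0.0849 and 0.0835) and with no filter (0.159 and 0.192), and Hadha was lost in the likelihood ratio test (0.0598). In MSCs Hadhb had overlapping groups, 75.7 to 78.0 CPM and 74.5 to 77.2 CPM, and a log2 fold change of −0.02 (95% interval −0.12 to 0.07). Acaa2 was at 119.9 to 128 CPM in vehicle MSCs and 122 to 127 CPM in FG-4592 MSCs, and at 73.01 to 80.3 and 76.6 to 81.0 CPM in osteocytes. It passed in neither cell type, with 95% intervals of −0.11 to 0.09 in MSCs and −0.07 to 0.14 in osteocytes.

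Hadha (chr5:30118304-30155162, minus strand) and Hadhb (chr5:30155248-30184593, plus strand) stand head to head, with 86 bases between their outermost annotated starts. Their RefSeq promoter windows overlap, and the window of Hadhb, chr5:30155003-30155302 on the plus strand, is shown because it spans the stretch between the paired genes.
Hadhb: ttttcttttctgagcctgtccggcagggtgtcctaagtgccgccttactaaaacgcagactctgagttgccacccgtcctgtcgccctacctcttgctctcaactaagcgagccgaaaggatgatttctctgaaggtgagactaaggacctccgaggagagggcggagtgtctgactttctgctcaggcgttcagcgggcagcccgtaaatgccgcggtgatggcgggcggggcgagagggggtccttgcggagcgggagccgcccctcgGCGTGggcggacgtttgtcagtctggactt
It holds GCGTG at position 20, inside the transcribed part, and no AGGTCA, and the window of Hadha holds none of these motifs. Hadhb also has a processed pseudogene, Gm13910, that matches it at 99.8% identity over 1428 bases and had at most 146 counts. Stretches of 141 to 196 bases of Hadhb matched a further 55 genes at 95% identity or more, Map4 with up to 35708 counts among them, and how many reads were split or left out was not tested. Hadha shares 75 exonic bases with Garem2, which had at most 11 counts.

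Ucp2 was counted almost only in the osteocyte libraries. Its counts were 4, 1 and 0 in vehicle MSCs, 3, 3 and 14 in FG-4592 MSCs, 233, 174 and 159 in vehicle osteocytes and 111, 123 and 90 in FG-4592 osteocytes. The osteocyte libraries lay far above all MSC libraries, and the treated osteocytes lay below the vehicle osteocytes. In CPM, vehicle osteocytes held 3.07 ± 0.464 and FG-4592 osteocytes 1.74 ± 0.264, a log2 fold change of −0.82 (95% interval −1.63 to −0.02). This did not pass in the edgeR quasi-likelihood test (FDR = 0.0908), whereas it did with edgeR's likelihood ratio test (FDR = 0.0178) and DESeq2 (adjusted p = 0.0247), and in 4 of 16 alternatives in all. Summed over libraries, 324 counts against 566 gave a ratio of 0.563 (exact 95% interval 0.489 to 0.646, for counting error only). In MSCs the log2 fold change was 1.82 (FDR = 0.0961), and 14 of the 20 counts with FG-4592 were in replicate 3. The MSC value was 0.71 without that library (FDR = 0.59) and 3.42 without vehicle MSC replicate 1, which held 4 of the 5 vehicle counts (FDR = 0.0243). The difference between the responses, −2.65 (SE 0.90, FDR = 0.0432, edgeR quasi-likelihood test), was past both cutoffs, but it rests in MSCs on 5 and 20 counts in total, and Ucp2 met the filter on low counts only through the osteocyte libraries. Without vehicle MSC replicate 1 it was −4.27 and without FG-4592 MSC replicate 3 it was −1.54 (FDR = 0.284), and it also lost its call without vehicle MSC replicate 2 or 3, vehicle osteocyte replicate 1 or 2, or any FG-4592 osteocyte replicate, with FDR between 0.0505 and 0.103. The call was lost as well with the replicate number as a block (FDR = 0.0708) and after thinning to the smallest library (FDR = 0.0772). The response difference of Hadhb, −0.10 (FDR = 0.280), passed without vehicle osteocyte replicate 2 (FDR = 0.0483). In all, 1 of 9 genes had a higher response in osteocytes (Acadm) and 2 a lower response (Cpt1a and Ucp2), against 13.3% and 11.0% of all genes, and the 1 past both cutoffs, where 5.01% of all genes were, was Ucp2 with the limits given.

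Ucp2 lies at chr7:100493337-100502020 on the plus strand and shares 305 exonic bases with Dnajb13, which had at most 18 counts. Its RefSeq promoter window, chr7:100493108-100493407 on the plus strand, is shown because it held more HIF cores than any other of the 9 windows.
Ucp2: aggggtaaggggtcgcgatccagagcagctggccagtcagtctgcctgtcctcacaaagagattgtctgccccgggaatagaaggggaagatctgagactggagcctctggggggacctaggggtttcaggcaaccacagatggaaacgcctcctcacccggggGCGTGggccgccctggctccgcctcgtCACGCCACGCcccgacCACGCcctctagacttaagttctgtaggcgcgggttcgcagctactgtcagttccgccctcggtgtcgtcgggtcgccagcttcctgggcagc
GCGTG occurs 4 times, once on the plus strand at position −86 and on the minus strand at −59, −54 and −43, and AGGTCA does not occur.

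The largest differences among the enzymes lay between osteocytes and MSCs. Under vehicle, 3 of the 9 tested genes were higher in osteocytes than in MSCs and 2 were lower (edgeR quasi-likelihood test, FDR under 0.05), with Ucp2 alone past both cutoffs. Ucp2 met the filter on low counts only through the osteocyte libraries, so its difference between the cell types follows in part from that filter and is given as a description. Among all genes tested 26.0% were higher, 24.9% were lower and 15.9% passed both cutoffs. Under FG-4592, 4 were higher, 3 were lower and Ucp2 again passed both cutoffs, against 30.5%, 25.3% and 18.3% of all genes. These comparisons share libraries with those of FG-4592 against vehicle. In bulk libraries, fewer cells of a type and less RNA per cell cannot be told apart, and the part that the adipocyte markers given above have in these differences was not tested.

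**Figure D3:**
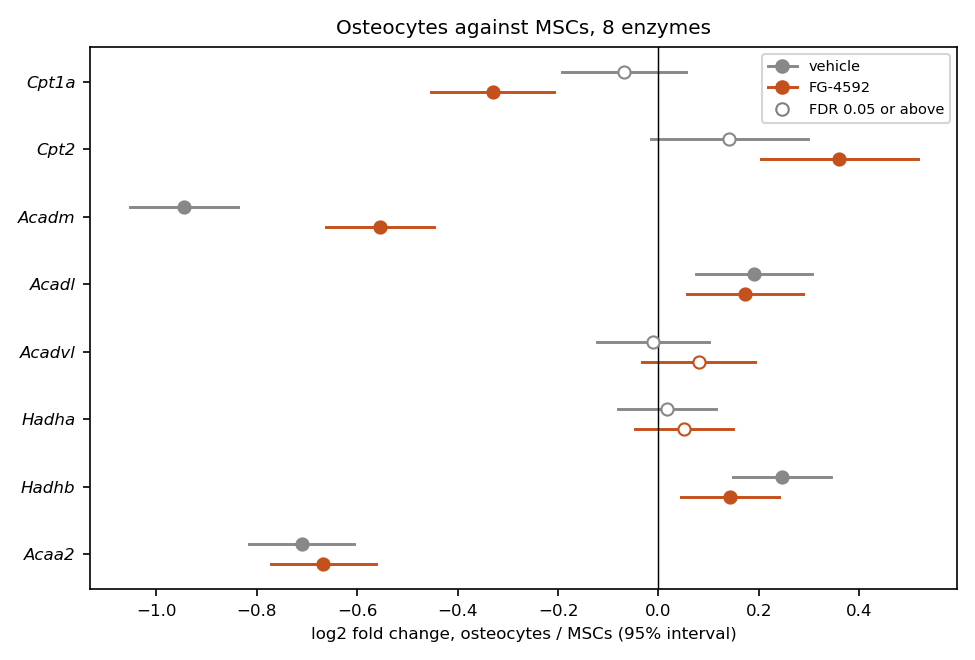
Log2 fold change of the 8 enzymes in osteocytes against MSCs, with 95% intervals from the edgeR fit, under vehicle (gray) and FG-4592 (orange). Filled points have an FDR under 0.05. Acadm and Acaa2 lie at −0.55 or below under both treatments, and the other 6 enzymes lie between −0.33 and 0.36.

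Acadm and Acaa2 were lower in osteocytes under both treatments, and Cpt1a under FG-4592. Acadm averaged 448 ± 9.92 CPM in vehicle MSCs and 233 ± 11.8 CPM in vehicle osteocytes (SD, n = 3), a log2 fold change of −0.94 (SE 0.05, FDR = 2.27e-10, edgeR quasi-likelihood test). Under FG-4592 it averaged 418 ± 3.30 and 285 ± 16.2 CPM, and the log2 fold change was −0.55 (SE 0.05, FDR = 1.11e-07). For Acaa2, vehicle MSCs averaged 125 ± 4.36 CPM and vehicle osteocytes 76.4 ± 3.68 CPM, a log2 fold change of −0.71 (SE 0.05, FDR = 4.97e-09). Its fall under FG-4592 was nearly as large, at −0.67 (SE 0.05, FDR = 7.86e-09). None of the libraries of MSCs and osteocytes overlapped for either gene, and all 4 calls held under all 17 alternatives run for each.

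The other differences between the cell types were smaller, apart from Ucp2. Hadhb was higher in osteocytes by 0.25 on the log2 scale under vehicle (FDR = 0.000309, edgeR quasi-likelihood test) and by 0.14 under FG-4592 (FDR = 0.0157). The latter was lost without FG-4592 MSC replicate 2 (FDR = 0.0553) or FG-4592 osteocyte replicate 3 (FDR = 0.0549), with no filter (FDR = 0.108) and with library size alone (FDR = 0.105). Acadl was higher by 0.19 (FDR = 0.00789) and 0.17 (FDR = 0.0130), the latter lost with library size alone (FDR = 0.070) and barely kept without FG-4592 MSC replicate 1, where the FDR rounds to 0.05. Hadha and Acadvl passed under neither treatment, with 95% intervals of −0.08 to 0.11 and −0.12 to 0.10 under vehicle. The carnitine pair parted under FG-4592, where Cpt2 was higher in osteocytes by 0.36 (FDR = 0.000562) and Cpt1a was lower by a log2 fold change of −0.33 (FDR = 0.000135). Under vehicle neither passed, at 0.14 for Cpt2 (FDR = 0.124) and −0.07 for Cpt1a (FDR = 0.348), and Cpt2 passed without vehicle MSC replicate 2 (FDR = 0.0380) and when genes that share exonic bases were left out (FDR = 0.0429). Ucp2 totaled 566 counts in vehicle osteocytes and 5 in vehicle MSCs, a ratio of 110.1 (exact 95% interval 46.9 to 340.5, for counting error only). Under FG-4592 the totals were 324 and 20, a ratio of 16.6 (exact 95% interval 10.5 to 27.5). Leaving out 1 library moved the fitted log2 fold change between 6.11 (without vehicle MSC replicate 3) and 8.28 (without vehicle MSC replicate 1) under vehicle, and between 3.65 (without FG-4592 MSC replicate 2) and 5.14 (without FG-4592 MSC replicate 3) under FG-4592.

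Across the 4 condition means, most enzymes varied less than a typical gene. The distance between the highest and lowest mean was 0.18 on the log2 scale for Hadha, 0.22 for Acadl, 0.27 for Acadvl and Hadhb, 0.33 for Cpt1a and 0.36 for Cpt2. The median over all genes tested was 0.77, and Hadha stood at percentile 3.86 of that distribution. Acaa2 (0.71), Acadm (0.95) and Ucp2 (5.81) stood at percentiles 46.4, 58.8 and 98.7. By the root mean square distance between centered condition means on the log2 scale, among 11244 well-counted protein-coding genes, the pattern closest to Acadm was that of Cenpv (0.0329). The closest to Acaa2 was Galk2 (0.0168), to Hadhb Uqcc1 (0.00411), to Hadha Trim27 (0.00484) and to Acadvl Sdhaf1 (0.0124). Cpt1a was closest to Wasl (0.00785), Cpt2 to Thap3 (0.00629), Acadl to Fbh1 (0.00818) and Ucp2 to Tmem178 (0.360). These distances cover 4 conditions only, and for a flat gene such as Hadha 1089 candidates lay within 0.1, against 39 for Acadm and none for Ucp2.

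Among the other genes of the pathway, those of the matrix were mostly lower with FG-4592 in MSCs. The median size of their log2 fold changes was 0.42 in MSCs and 0.21 in osteocytes, beside 0.16 and 0.13 for the 9 members and 0.29 and 0.32 for all genes tested, and the difference between lists was not tested. In MSCs, 10 of 14 other matrix beta-oxidation genes fell and 1 rose, with a median log2 fold change of −0.29, where 20.4% of all genes fell and 17.6% rose. Echs1, the short-chain enoyl-CoA hydratase, fell by 1.00 on the log2 scale, from 101.5 ± 1.83 to 50.6 ± 2.78 CPM (FDR = 6.77e-09, edgeR quasi-likelihood test). The acyl-CoA dehydrogenase Acad12 fell by 1.06 (FDR = 8.67e-07). In osteocytes 6 of the 14 fell and 2 rose, with a median of −0.16, where 22.0% of all genes fell and 21.9% rose, and Acad11, with the smallest FDR, fell by 0.88, from 170.3 ± 4.62 to 92.3 ± 1.16 CPM (FDR = 4.58e-10). The summed level of the 14 genes was 779 ± 14.0 TPM in vehicle MSCs and 624 ± 26.0 TPM in FG-4592 MSCs, and 817 ± 8.60 and 679.6 ± 8.84 TPM in osteocytes. The libraries did not overlap in either cell type.

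**Figure D4:**
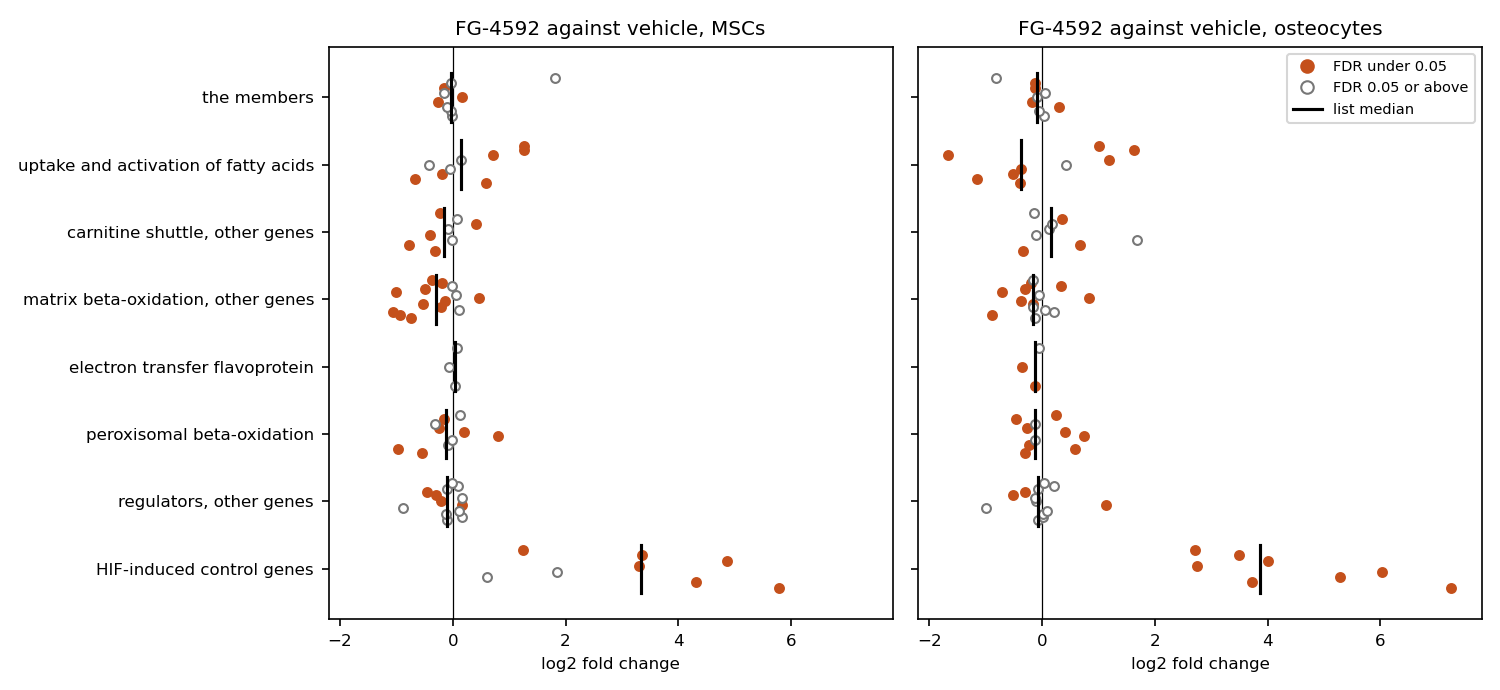
Log2 fold change with FG-4592 in MSCs (left) and osteocytes (right) for the 9 tested members and for 7 lists of other genes. Each point is a gene, filled where the FDR is under 0.05, and black bars are list medians. The members sit near 0 apart from Ucp2, the matrix genes have medians of −0.29 and −0.16, and the HIF-induced control genes have medians of 3.33 and 3.87.

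Uptake and activation genes, which bring fatty acids into the cell and join them to CoA, moved in both directions. In MSCs 4 of the 9 tested rose and 2 fell (17.6% and 20.4% of all genes), and in osteocytes 3 rose and 5 fell (21.9% and 22.0%). The fatty acid transporters Slc27a1 and Slc27a4 rose in both, each by 1.26 in MSCs and by 1.63 and 1.00 in osteocytes. In osteocytes the acyl-CoA synthetase Acsl3 fell by 1.16 (FDR = 9.29e-12, edgeR quasi-likelihood test). Of the fatty acid binding proteins there, Fabp5 fell from 54.9 ± 9.74 to 17.3 ± 2.27 CPM and Fabp4 rose from 104 ± 10.1 to 238 ± 48.9 CPM. Fabp4 is also among the 9 adipocyte markers. Under vehicle, 7 of the 9 genes were higher in osteocytes than in MSCs and 1 was lower, with a median log2 fold change of 2.02. Acsl1, Cd36, Fabp4, Fabp5 and Slc27a1 passed both cutoffs there, by 2.93, 6.28, 4.84, 2.02 and 4.11. Cd36 met the filter on low counts only through the osteocyte libraries, so its difference follows in part from that filter. In the same comparison 7 of the 14 other matrix genes were higher and 5 lower, 5 of 8 carnitine shuttle genes higher and 2 lower, 7 of 10 peroxisomal genes higher and 1 lower, and 5 of 13 regulators higher and none lower, beside 26.0% of all genes higher and 24.9% lower.

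The counts of the remaining lists stand beside 17.6% of all genes that rose and 20.4% that fell in MSCs, and 21.9% and 22.0% in osteocytes, and several of them are near these shares. Of 8 other carnitine shuttle genes, FG-4592 raised 1 and lowered 4 in MSCs and raised 2 and lowered 1 in osteocytes. Acaca and Acacb make the malonyl-CoA that inhibits Cpt1a. Acaca, with the smallest FDR of the list, fell from 139.9 ± 5.31 to 112 ± 3.23 CPM in MSCs (log2 fold change −0.32, FDR = 5.89e-05, edgeR quasi-likelihood test) and from 168 ± 1.86 to 133 ± 5.85 CPM in osteocytes (−0.33, FDR = 2.49e-05). Acacb, at 4.08 to 17.6 CPM on average per condition, fell by 0.78 in MSCs and rose by 0.66 in osteocytes, and the difference between its responses was 1.44 (FDR = 2.11e-05, edgeR quasi-likelihood test). The 3 genes of electron transfer flavoprotein and its dehydrogenase, which pass the electrons of the dehydrogenases on, had none past the test in MSCs and 2 lower in osteocytes. Of 10 peroxisomal genes, 2 rose and 4 fell in MSCs and 4 rose and 4 fell in osteocytes. Among 13 other regulators, 1 rose and 3 fell in MSCs and 1 rose and 2 fell in osteocytes. Ppard, a nuclear receptor activated by fatty acids, was the regulator past both cutoffs in osteocytes, with a rise from 44.8 ± 1.57 to 98.4 ± 2.73 CPM (log2 fold change 1.14, FDR = 1.45e-10). Of 3 other uncoupling protein genes none passed the test with FG-4592 in either cell type. Ucp3 was higher in vehicle osteocytes, at 0.732 ± 0.172 CPM against 0.0218 ± 0.0238 CPM in vehicle MSCs. The MSC value lies below 0.0447 CPM, the lowest level that a count of 3 equaled. Ucp3 met the filter on low counts only through the osteocyte libraries, so this difference follows in part from that filter.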

How the data were processed

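Counts per gene were deposited by the authors for 12 libraries of mRNA-enriched RNA, 3 per condition. Per the labels and the study's methods, reads were mapped to mm10 with STAR 2.7.2a, and uniquely mapped reads were assigned to Gencode M22 genes with featureCounts of Subread 1.6.2, without a strand setting and with overlapping genes each credited. The deposited table also gave exonic lengths.

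Genes with a count above 10 in at least 3 libraries were kept (16484 of 56350). TMM factors and the quasi-likelihood test of edgeR 4.0.16 were applied to all 12 libraries with 1 coefficient per condition (8 residual degrees of freedom), with Benjamini-Hochberg adjustment across the genes tested. Standard errors are the fold change divided by the square root of F. The study's 2 cutoffs, FDR under 0.05 and a log2 fold change beyond 1 in size, were kept. The procedure was tested on simulated data. All members were named, and from the other lists those past both cutoffs or, where none was, the gene with the smallest FDR. A few others were chosen after their values were seen (Pdk1, Phex, Ibsp, Adipoq, Plin1, Pnpla2, and Acacb and Ucp3 outside the comparison that named them). Car9, Egln3, Cidec, Cfd and Retn were also named for how they met the filter on low counts. The members and lists were chosen with earlier results of these data known for other genes. Copies of the members were sought with blastn 2.17.0 in Gencode M21 transcripts (at least 95% identity over 100 bases). Libraries of a condition differed by more than counting noise (chi-square per gene 9.89 to 37.7), so none was treated as a repeat deposit. Replicate numbers did not pair the libraries.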

Additional observations from a re-analysis of the deposited data

Results flagged for a closer look

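The response to FG-4592 differed between osteocytes and MSCs for 3 of the 9 tested members, by the interaction term of the edgeR fit, where 13.3% of all genes had a higher and 11.0% a lower response in osteocytes. The response in osteocytes minus that in MSCs was −0.26 on the log2 scale for Cpt1a (FDR = 0.0281), 0.39 for Acadm (FDR = 0.000796) and −2.65 for Ucp2 (FDR = 0.0432, edgeR quasi-likelihood test in each case). For Acadm, all 3 treated osteocyte libraries lay above the vehicle osteocytes and all 3 treated MSC libraries lay below the vehicle MSCs. The call on Cpt1a was lost without FG-4592 MSC replicate 1 (FDR = 0.0647) or vehicle osteocyte replicate 3 (FDR = 0.0557). Ucp2 met the filter on low counts only through the osteocyte libraries, and its value rests on MSC libraries with 0 to 14 counts, and without FG-4592 MSC replicate 3 it was −1.54 (FDR = 0.284).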

How the results depend on the processing

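Apart from leaving out a library, 11 alternatives were run for the tests, and the calls on Acadm and Acaa2 between osteocytes and MSCs, on Acadvl in MSCs and on the response difference of Acadm held under every alternative that could be run for them. In MSCs, FG-4592 raised 2 members in place of 1 with the likelihood ratio test, DESeq2 or no filter, each time with 1 past both cutoffs (Ucp2), and 0 with upper-quartile factors or library size alone. It lowered 4 in place of 2 with library size alone and 0 when genes with shared exonic bases were left out, a setting that drops Acadvl, Hadha and Ucp2 by construction. In osteocytes 5 fell in place of 3 with library size alone and 1 without the sharing genes, and between osteocytes and MSCs 0 passed both cutoffs without them under either treatment. With library size alone 2 members were higher in FG-4592 osteocytes than in FG-4592 MSCs in place of 4. Library size alone shifted the median of all genes by up to −0.10.

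Same-numbered libraries did not deviate together (12 correlations between −0.0528 and 0.0543), so the numbers do not pair them. With the replicate number as a block, 1 member had a lower response in osteocytes in place of 2, and 0 passed both cutoffs. The same counts, 1 and 0, were found without the sharing genes and after thinning to the smallest library, and the block changed no other count by over 1.5 times.

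When single libraries were omitted, the members higher with FG-4592 in MSCs numbered 0 to 2, those lower 1 to 2 and those past both cutoffs 0 to 1. In osteocytes those lower numbered 0 to 3. The lower response differences numbered 1 to 2 and those past both cutoffs 0 to 1.

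Signs turned only for values near 0 that had passed no test. With the 6 libraries compared alone, MSC values became 0.0044 for Hadhb and 0.021 for Acaa2, and Acadvl under vehicle between cell types became 0.0065. Without the sharing genes, MSC values were 0.0097 for Acadl, 0.016 for Hadhb and 0.033 for Acaa2, and the response difference of Acaa2 was −0.012. With upper-quartile factors Acaa2 was −0.0019 in osteocytes and Hadha −0.0038 between cell types under vehicle. Library size alone gave −0.037 for Cpt2 and −0.064 for Acaa2 in osteocytes and −0.020 for Hadha between cell types, and no filter gave −0.0056 for the last. The log2 ratio of summed enzymes in osteocytes, FG-4592 to vehicle, was −0.08 in TPM and 0.0025 in CPM, and the cause was not tested. Over the omitted libraries, MSC values ran from −0.047 to 0.033 for Acadl, −0.039 to 0.016 for Hadhb and −0.023 to 0.038 for Acaa2, and osteocyte values from −0.098 to 0.013 for Acadl and −0.016 to 0.071 for Acaa2. Between vehicle cell types they ran from −0.066 to 0.073 for Acadvl and −0.0028 to 0.083 for Hadha. Response differences ran from −0.099 to 0.046 for Acadl, −0.0013 to 0.147 for Acadvl, −0.041 to 0.055 for Hadha and −0.036 to 0.080 for Acaa2. Depth limits Ppargc1a and Ucp2 in MSCs.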
